A study of Mus musculus with 24 samples.

Results

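The genes described here are 9 transcription factors, RNA-binding proteins and surface or stem-cell proteins of the core pluripotency and reprogramming set: Pou5f1, Nanog, Sox2, Sall4, Utf1, Lin28a, Tdgf1, Dppa4 and Dppa5a. They were chosen by symbol, as a list, from the table of mouse embryonic stem cells (mESC) and the table of neural progenitor cells (NPC) derived from such cells. Among the 17501 genes measured in mESC, 8 of the 9 symbols were matched, and all 8 passed the filter on low values (at least 1 in at least 2 libraries). Among the 16024 genes measured in NPC, 5 were matched: Pou5f1, Nanog, Sall4, Lin28a and Tdgf1. Sox2 was not analysed here, nor were Utf1, Dppa4 and Dppa5a in NPC.

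The study measured RNA by sequencing in 24 libraries, 12 of mESC and 12 of NPC, with 2 libraries in each of 6 genotypes of Htt, the huntingtin gene whose CAG repeat is expanded in Huntington's disease. The groups were wild type (WT), Htt knockout (KO), and the 4 lines Q20, Q50, Q92 and Q111, each heterozygous for a knock-in allele of Htt (also called Hdh) whose number of CAG repeats is in its name. For Q92 the growth protocol states 89 repeats in place of 92. All mESC were kept with leukemia inhibitory factor on gelatin over irradiated mouse embryonic fibroblast feeders. NPC were obtained in N2B27 medium and then expanded on laminin with FGF and EGF. Each genotype is represented by its own line, so line and genotype cannot be told apart, and the labels give the origin of the knock-in lines but not that of WT and KO. The series text calls the pairs biological samples without saying whether they came from separate cultures, so p-values may measure technical spread alone.

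The mESC libraries held between 58546211 and 81502284 recovered reads and the NPC libraries between 48525333 and 118038952, so that 3 reads correspond to a value between 0.0265 and 0.0580 in NPC. Values are what the authors name CPM, read counts scaled per library, and the tables of the cell types were scaled separately. Htt was 124 and 113 in WT mESC, 139 in the library labelled KO 1 and 68.5 in the library labelled KO 2. The library labelled KO 1 was therefore not below WT for the targeted gene, and directions in mESC labelled KO are given with that reservation. In NPC Htt was 137 and 177 in WT and 100.1 and 94.9 in KO.

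Pluripotent cells keep their state through a small circuit of transcription factors that bind each other's regulatory DNA. Pou5f1 encodes OCT4, a POU-domain factor that binds the octamer motif next to SOX2, and NANOG, a homeodomain factor, and SALL4, a zinc-finger factor, act in the same circuit. LIN28A is an RNA-binding protein that blocks maturation of let-7 microRNAs, and let-7 in turn represses the Lin28 genes. Tdgf1 (Cripto) encodes a membrane-anchored co-receptor for Nodal, Utf1 a chromatin-associated factor, Dppa4 a nuclear protein of early embryos, and Dppa5a a small KH-domain protein. Most of these genes are silenced when stem cells become neural, whereas Sox2 is kept in neural progenitors.

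By GENCODE M21 on GRCm38, all 9 are protein-coding genes. Pou5f1 (ENSMUSG00000024406) lies on the plus strand at chr17:35506018-35510772, with 5 exons in its longest transcript, Nanog (ENSMUSG00000012396) on the plus strand at chr6:122707489-122714633, and Sall4 (ENSMUSG00000027547) on the minus strand at chr2:168748332-168767943. Lin28a (ENSMUSG00000050966) lies on the minus strand at chr4:134003330-134018841, Tdgf1 (ENSMUSG00000032494) on the minus strand at chr9:110939603-110946158, and Utf1 (ENSMUSG00000047751) on the plus strand at chr7:139943789-139945112. Dppa4 (ENSMUSG00000058550) lies on the plus strand at chr16:48283733-48294237, and Dppa5a (ENSMUSG00000060461) on the minus strand at chr9:78367052-78368177. Genes on the opposite strand overlap Pou5f1 (Gm19553), Lin28a (Gm13061) and Sall4 (Gm14261), and the use of strand in counting is not given in the sources used here. Annotated pseudogenes that carry the gene's own symbol exist for Nanog (Nanog-ps1, Nanog-ps2) and Tdgf1 (Tdgf1-ps1, Tdgf1-ps2), so reads of these genes could have been divided between copies. Pseudogenes under other names were not searched for, so the same may hold for the other genes.

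Upstream sequences are shown for 4 of the genes measured in both cell types, because 3 of them had high values in 1 NPC line and Tdgf1 did not. Sall4 was also high in that line, but the upstream sequences used here held no entry for it. Sequences are from RefSeq on GRCm38.p6, on each gene's own strand from 5′ to 3′, and end just before the outermost GENCODE start of the gene: Pou5f1 at chr17:35505782-35506017, Nanog at chr6:122707239-122707488, Lin28a at chr4:134018842-134019066 and Tdgf1 at chr9:110946159-110946408. Capitals mark matches, on either strand, to the octamer core TTTGCAT, the SOX core ACAATG, or both joined with 1 base between them.
Pou5f1: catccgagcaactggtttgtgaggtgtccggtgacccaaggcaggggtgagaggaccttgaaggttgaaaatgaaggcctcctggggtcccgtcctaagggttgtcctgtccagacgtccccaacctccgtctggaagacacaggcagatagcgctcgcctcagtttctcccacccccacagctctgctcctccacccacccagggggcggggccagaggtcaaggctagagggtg
Nanog: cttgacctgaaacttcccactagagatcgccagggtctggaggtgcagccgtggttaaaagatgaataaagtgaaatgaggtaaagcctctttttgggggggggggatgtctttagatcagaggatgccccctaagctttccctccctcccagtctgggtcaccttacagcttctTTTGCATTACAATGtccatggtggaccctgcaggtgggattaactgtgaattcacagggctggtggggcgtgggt
Lin28a: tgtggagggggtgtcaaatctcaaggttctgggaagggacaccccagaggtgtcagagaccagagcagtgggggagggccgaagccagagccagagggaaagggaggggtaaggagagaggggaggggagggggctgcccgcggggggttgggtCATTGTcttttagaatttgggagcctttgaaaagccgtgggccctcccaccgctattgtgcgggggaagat
Tdgf1: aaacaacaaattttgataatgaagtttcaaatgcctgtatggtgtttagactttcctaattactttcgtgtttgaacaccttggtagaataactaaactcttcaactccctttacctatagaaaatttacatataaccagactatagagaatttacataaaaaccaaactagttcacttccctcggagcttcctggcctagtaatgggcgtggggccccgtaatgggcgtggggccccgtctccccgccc

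In the 250 bases upstream of the RefSeq start, Nanog held the joined octamer and SOX motif from position -75 to -62. That motif occurred in 2 of 32851 upstream windows of this length, and both belonged to Nanog. The octamer core alone, which the joined motif contains, occurred in 4.12% of all windows and the SOX core in 10.7%. Lin28a held a SOX core from -96 to -91 and no octamer core, and the Pou5f1 and Tdgf1 windows held neither. The GC box GGGCGG, present in 32.7% of windows, occurred once each upstream of Pou5f1 (-45 to -40) and Tdgf1 (-6 to -1). These matches describe the letters in the windows only.

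The let-7 family is shown because Lin28a and its paralog Lin28b are the proteins that hold it back, and because both carry its seed match. The mature mmu-let-7a-5p (RefSeq, GRCm38.p6, minus strand of chr13:48538239-48538260) is given with its seed, bases 2 to 8, in capitals, and 11 mature mouse names in RefSeq share that seed.
mmu-let-7a-5p: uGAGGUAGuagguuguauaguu

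In the longest coding transcripts of GENCODE M21, the complement of the seed (CTACCTC) occurred in 8.86% of 20940 3′ untranslated regions, whose median length was 939 bases. It occurred 2 times in that of Lin28a (2775 bases), 4 times each in those of Lin28b (4445 bases), Trim71 (5512 bases), Igf2bp1 (6337 bases) and Hmga2 (3014 bases), and 1 time in that of Sall4 (1697 bases). Those of Pou5f1, Nanog, Tdgf1, Utf1, Dppa4 and Dppa5a held none. The first match of each of the 4 genes described with let-7 below is shown with its flanking bases, the match in capitals, all from the minus strand of GRCm38: Lin28a at chr4:134005189-134005210, Lin28b at chr10:45381022-45381043, Trim71 at chr9:114512472-114512493 and Igf2bp1 at chr11:95961778-95961799.
Lin28a: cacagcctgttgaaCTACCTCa
Lin28b: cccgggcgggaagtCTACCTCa
Trim71: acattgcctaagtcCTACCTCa
Igf2bp1: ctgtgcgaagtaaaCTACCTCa

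All 8 matched genes were expressed in every mESC library, with levels that differed widely between genes and between the 2 libraries of a genotype. Per kilobase of exon, Dppa5a had the highest median level over the 12 libraries, at 970.2, followed by Tdgf1 at 397, Pou5f1 at 189.9, Nanog at 176, Dppa4 at 82.5, Sall4 at 39.9, Lin28a at 34.3 and Utf1 at 10.3. Without a term for the replicate number no comparison of genotypes called any of the 8 at an adjusted p under 0.05 (limma, Benjamini-Hochberg over 13916 genes), and with one Dppa5a alone was called. In bulk libraries, fewer cells of a type and less RNA per cell cannot be told apart.

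**Figure D1:**
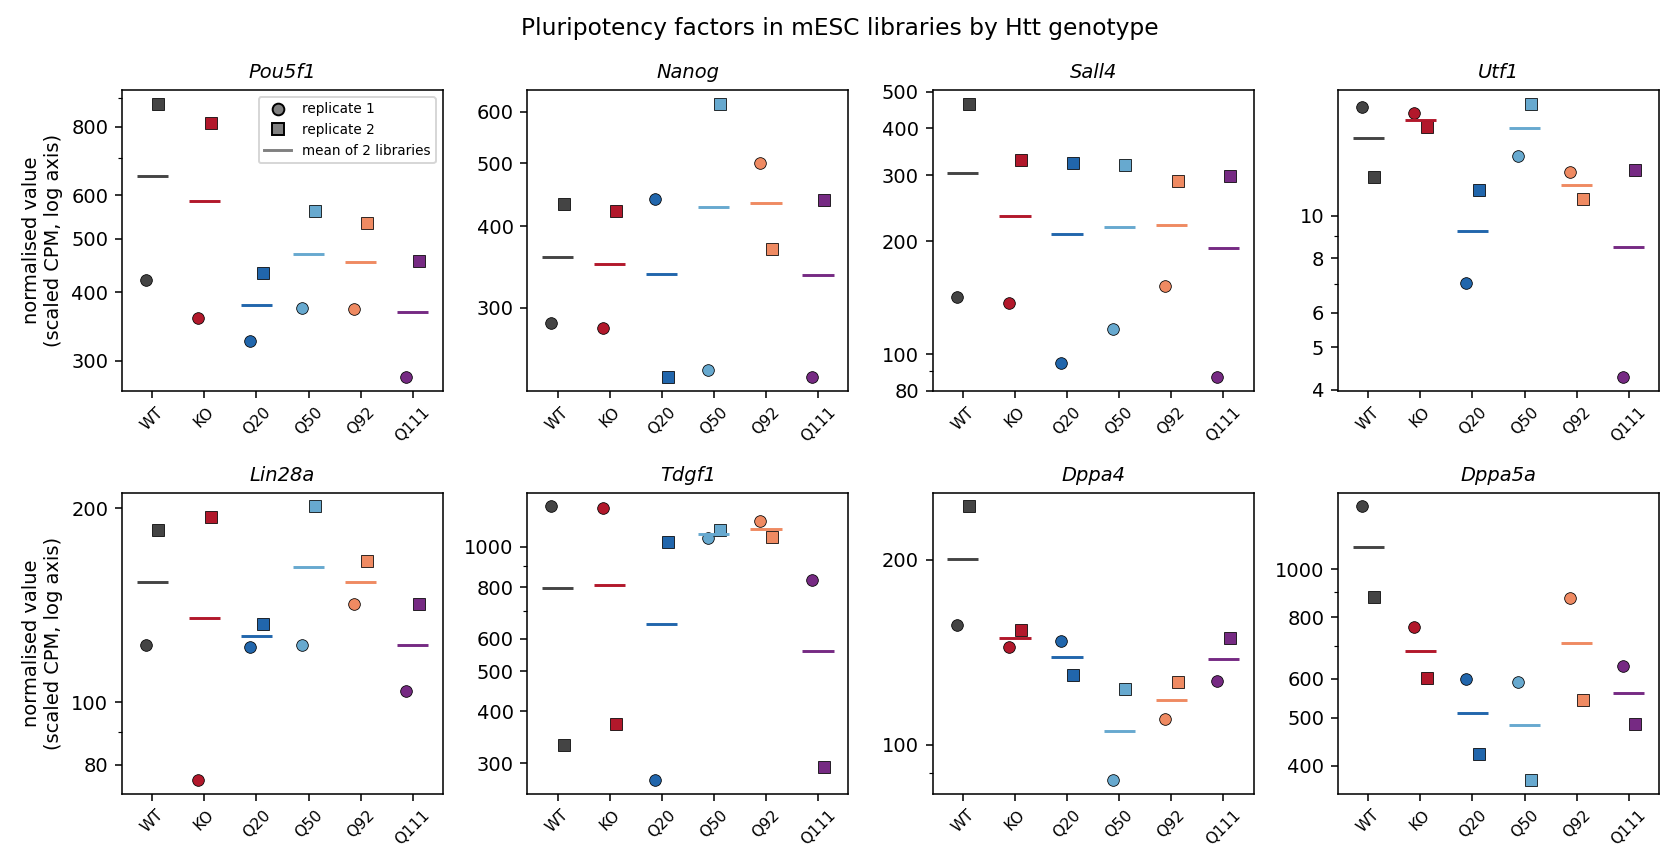
Values of the 8 matched genes in the 12 mESC libraries, with Htt genotype on the horizontal axis and the normalised value (scaled CPM) on a logarithmic vertical axis that differs between panels; circles and squares are replicates 1 and 2 and lines are means of 2 libraries. For Pou5f1, Sall4 and Lin28a the squares lie above the circles in all 6 genotypes, and Dppa5a is highest in WT.

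Among the transcription factors, Pou5f1 stood at 421 and 880.0 in WT (replicates 1 and 2), 359 and 813 in KO, 326 and 433 in Q20, 374 and 562 in Q50, 372 and 534 in Q92, and 279.7 and 455 in Q111. Replicate 2 was the higher library in each genotype, and every pair of neighbouring genotypes in the order of means overlapped. Nanog was 284 and 433 in WT, 279 and 422 in KO, 441 and 235 in Q20, 241 and 617 in Q50, 500.2 and 369 in Q92, and 234 and 439 in Q111. Its genotype means lay between 337 in Q111 and 435 in Q92, a range smaller than the SD of 266 within Q50, and all neighbours overlapped.

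Sall4 was 142 and 464 in WT, 137 and 329 in KO, 94.8 and 324 in Q20, 117 and 319 in Q50, 152 and 289.5 in Q92, and 86.7 and 298 in Q111. Its replicates differed by a mean of 1.48 on the log2 scale, always with replicate 2 higher, which exceeded any difference between genotype means. Utf1, the least abundant of the 8, was 17.8 and 12.3 in WT, 17.1 and 16.0 in KO, 7.03 and 11.5 in Q20, 13.7 and 18.0 in Q50, 12.6 and 11.0 in Q92, and 4.27 and 12.7 in Q111. The Q20 pair lay below the WT, KO and Q50 pairs, and the widest spread was within Q111.

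Lin28a was 123 and 185 in WT, 75.8 and 194 in KO, 122 and 132 in Q20, 123 and 201 in Q50, 142 and 165 in Q92, and 104 and 142 in Q111. Its lowest value came from the library labelled KO 1 and its second highest from the library labelled KO 2, and all neighbours in the order of means overlapped. Tdgf1, the Nodal co-receptor, was 1255 and 332 in WT, 1243 and 373 in KO, 273 and 1027 in Q20, 1052 and 1098 in Q50, 1156 and 1055 in Q92, and 829.7 and 293 in Q111. Its 12 values fell into 4 between 273 and 373 and 8 between 829.7 and 1255. In WT, KO, Q20 and Q111 one library of the pair was in each range, with the low one being replicate 1 in Q20 and replicate 2 in the others.

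Dppa4 was 157 and 244 in WT, 144 and 154 in KO, 148 and 130.0 in Q20, 87.7 and 123 in Q50, 110.3 and 127 in Q92, and 127 and 149 in Q111. Both WT libraries lay above all others, and those of Q50 and Q92 were among the lowest. Dppa5a was 1343 and 879.8 in WT, 764 and 601 in KO, 599.6 and 422 in Q20, 592 and 374 in Q50, 874 and 544 in Q92, and 638 and 485 in Q111. Its WT mean was 1111 ± 328 (SD, n = 2) against 511 ± 126 (SD, n = 2) in Q20, and WT did not overlap with any other genotype, although its lower library was close to the higher one of Q92.

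For KO against WT, 0 of the 8 genes were called, where 0.0144% of all tested genes were, and 0 had an unadjusted p under 0.05 (limma). The log2 changes ran from -0.68 for Dppa5a (SE 0.34) to 0.15 for Utf1 (SE 0.45), with the library labelled KO 1 not lower in Htt. For Q20 against WT, 0 of 8 were called beside 0.323% of all genes, and 1 had an unadjusted p under 0.05. That gene was Dppa5a, with a log2 change of -1.11 (SE 0.34, limma adjusted p = 0.221). With the replicate number as a block, read as a pairing because the mESC libraries of 1 number deviated together, Dppa5a was called at the same change (SE 0.11, limma adjusted p = 0.00452), 1 of 8 beside 10.6% of all genes. All 8 estimates were below 0 in this comparison, from -1.11 to -0.12 for Nanog, and the median over all genes was -0.04.

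Against Q20, 0 of 8 genes were called in Q50 or Q92, each beside 0.00719% of all genes, and 0 in Q111, beside 0%, with 0 at an unadjusted p under 0.05 in any of these (limma). Tdgf1 had the largest estimates, 1.02 (SE 0.86) in Q50 and 1.06 (SE 0.86) in Q92, both against a Q20 pair whose replicate 1 was low. The test over all 6 genotypes called 0 of 8 beside 0.201% of all genes, and the slope on CAG length over 8 knock-in libraries called 0 of 8 beside 0%, again with 0 at an unadjusted p under 0.05. Blocked on replicate number, the test over genotypes called 1 of 8, Dppa5a, beside 8.67% of all genes. The slopes, each given for the whole span of 91 repeats between Q20 and Q111, lay between -0.27 for Utf1 (SE 0.49) and 0.34 for Dppa5a (SE 0.30). With edgeR's quasi-likelihood test on the recovered reads, without the block, the count was also 0 in each of the 7 mESC comparisons.

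The 2 mESC libraries of a genotype differed in the same direction across genotypes for several of these genes. On the log2(value + 1) scale, replicate 2 exceeded replicate 1 in 6 of 6 genotypes for Pou5f1 (mean 0.74, from 0.41 to 1.18), Lin28a (mean 0.57, from 0.12 to 1.34) and Sall4 (mean 1.48, from 0.93 to 1.77). For Dppa5a replicate 2 was lower in 6 of 6, with a mean difference of -0.53. Of all 13916 tested genes, 19.7% were higher and 21.7% lower in replicate 2 in all 6 genotypes, so such genes were common. Nanog, Tdgf1, Utf1 and Dppa4 changed direction between genotypes.

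**Figure D2:**
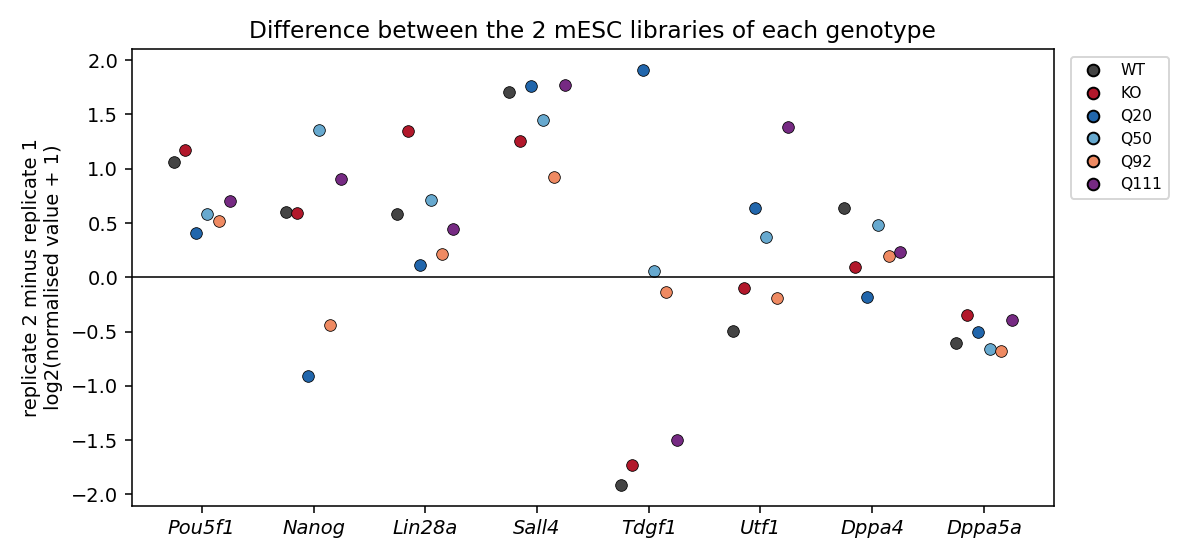
Difference between replicates 2 and 1 on the log2(normalised value + 1) scale for each of the 8 genes (horizontal axis) in mESC, 1 point per genotype. All 6 points lie above 0 for Pou5f1, Lin28a and Sall4 and below 0 for Dppa5a, while Tdgf1 spans -1.91 to 1.91.

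Among 10432 other genes with a mean of at least 5, the 3 whose log2 values followed each gene most closely over the 12 mESC libraries were picked out. Pearson's r, a description over 12 libraries that share the split between replicates, was 0.982 for Pou5f1 with Trmt11 and with Srsf6 and 0.98 with Cirbp. Sall4 was closest to Dhx16 (0.983), Atg2a and Daxx (both 0.982), Lin28a to Sec24c (0.97), Pdap1 (0.957) and Pdf (0.949), and Dppa5a to Osbpl9 (0.969), Tmeff1 (0.964) and Rpl39l (0.96). Tdgf1 was closest to Rnd3 (0.921), Hist1h2ag (0.89) and Zfp949 (0.8), Utf1 to Traf3ip2 (0.919), Ldb1 (0.904) and Tmem253 (0.88), and Dppa4 to Sigirr (0.868), Pex3 (0.867) and Bbs5 (0.863). Nanog had the loosest neighbours, Nup62 (0.796), Smim10l1 (0.784) and Bloc1s1 (0.773). Among the 8 genes themselves, r was 0.874 for Pou5f1 with Sall4, 0.792 for Pou5f1 with Lin28a and 0.465 for Pou5f1 with Nanog, and -0.571 for Tdgf1 with Dppa4.

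Related genes were called in few mESC comparisons without the replicate block and in more with it. Of 13 further pluripotency network factors reported here (such as Esrrb, Klf4 and Tfcp2l1), 0 were called in any of the 7 comparisons by limma or edgeR, with at most 2 at an unadjusted p under 0.05. Blocked on replicate number, 4 of the 13 fell in Q20 against WT, Klf5, Prdm14, Tbx3 and Tfcp2l1, beside 10.6% of all genes called in either direction. Of 10 tested genes of the Lin28 and let-7 axis 0 were called by either tool, also with at most 2 at an unadjusted p under 0.05, and with the block 0 were called in Q20 against WT. Of 20 pluripotency-associated targets 1 was called in Q20 against WT, beside 0.323% of all genes. This was the maternal-effect gene Dppa3, which rose by 3.34 (SE 0.35, limma adjusted p = 0.0161). With the block 2 of the 20 rose and 4 fell, beside 10.6% of all genes called. In Q50 against Q20 the block called Tfcp2l1 and Dis3l2 higher and Dnmt3b lower, and in Q92 against Q20 it called Dppa3 lower. The share of all genes called with the block in these comparisons with Q20 is not given here. The blocked test over all 6 genotypes called 5 of the 13 network factors, 2 of the 10 axis genes and 3 of the 20 targets. It called 8.67% of all genes.

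Markers of other cell types also differed between Q20 and WT mESC. Without the block 0.259% of all genes were called higher in this comparison, and with it 10.6% were called in either direction. Of 9 feeder fibroblast markers 3 rose, Col1a1, Col1a2 and Acta2, and 8 with the block. The summed level of that list was 24.5 and 38.2 in WT, 23.5 and 34.4 in KO, and between 123 and 299 in the 8 knock-in libraries. Primitive endoderm markers summed to 309.7 and 317 in WT and 89.3 and 131 in Q20. Of their 7 genes 0 were called by limma or edgeR, 6 had an unadjusted p under 0.05, and 5 fell with the block (Dab2, Gata4, Gata6, Lama1 and Pdgfra), with a median change of -1.55. Germ cell markers summed to 256 and 341 in WT and 149.8 and 135 in Q20, and of their 5 genes 0 were called by either tool, 3 had an unadjusted p under 0.05 and 2 fell with the block. Neural progenitor markers summed to 107.6 and 179 in WT, 314 and 499 in Q20, and between 203 and 534 in the 8 knock-in libraries. Of their 7 tested genes 0 were called by either tool, 2 had an unadjusted p under 0.05 (limma) and 2 rose with the block, Nes and Cdh2. Of 4 tested primed and mesoderm markers 0 were called by either tool and 1, T, rose with the block. Of the astrocyte and neuron markers 0 were called by either tool or with the block. The part of these cell types in the Q20 estimates of the pluripotency genes was not tested.

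In NPC, 4 of the 5 matched genes were at low levels in 5 genotypes and clearly expressed in both Q20 libraries. Pou5f1, Lin28a and Sall4 reached values from 47.1 to 90.1 in Q20 and stayed at or below 0.405 in the 10 other libraries. Nanog reached 13.0 and 13.7 in Q20 and at most 1.63 elsewhere, while Tdgf1 stayed below 1 in every library. The Q20 values were known when the genes were listed, so the tests below describe them and do not add independent support.

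**Figure D3:**
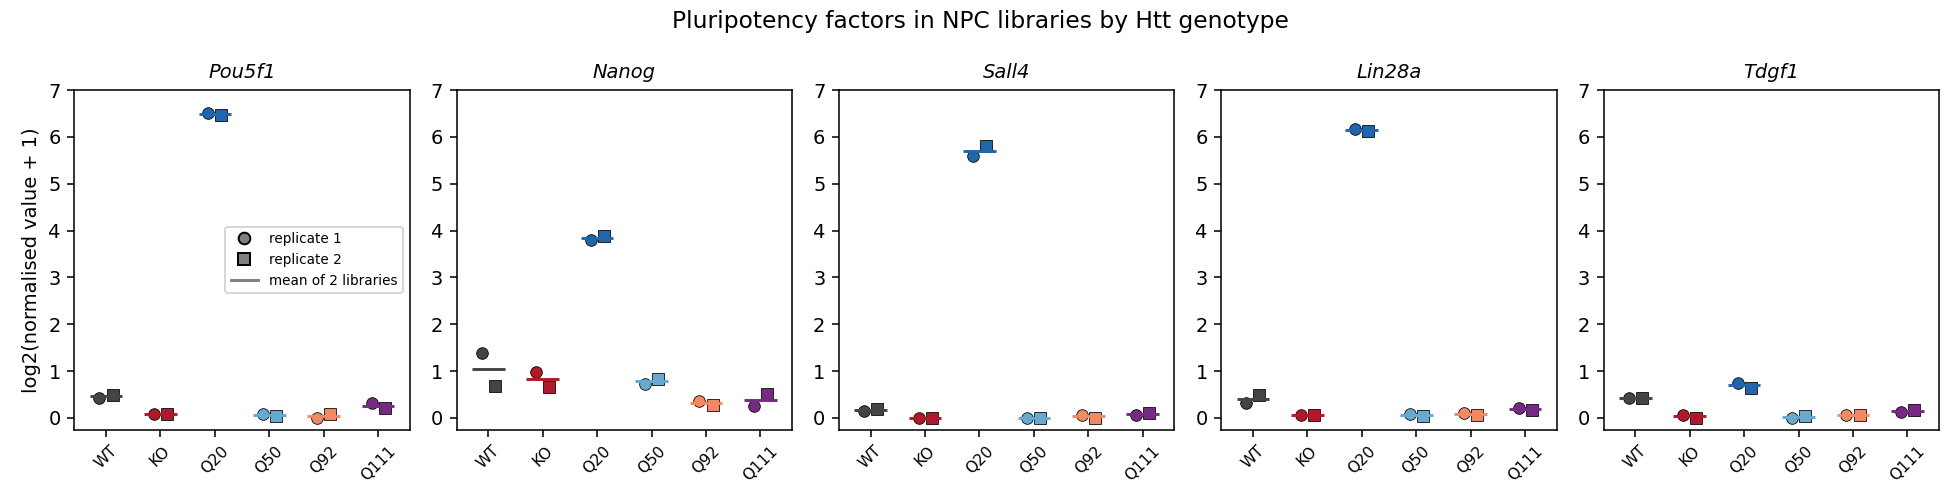
log2(normalised value + 1) of the 5 matched genes in the 12 NPC libraries by Htt genotype, with circles and squares for replicates 1 and 2 and lines for the mean of 2. Both Q20 libraries of Pou5f1, Nanog, Sall4 and Lin28a lie far above the 10 others, and Tdgf1 stays low throughout.

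Pou5f1 was 90.1 and 87.4 in Q20, which rest on 7248 and 8153 reads. It was 0.350 and 0.405 in WT, 0.0591 and 0.0618 in KO, 0.0580 and 0.0235 in Q50, 0 and 0.0625 in Q92, and 0.244 and 0.156 in Q111. Its level in Q20 was 232 times that in WT by reads (exact 95% counting interval 177 to 309.5, which covers counting error only) and 441 times that in Q111 (307 to 659). WT and Q111, with 53 and 29 reads in their 2 libraries, were above KO, Q50 and Q92, with 13, 5 and 4.

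Nanog was 13.0 and 13.7 in Q20, 1.63 and 0.601 in WT, 0.975 and 0.591 in KO, 0.657 and 0.776 in Q50, 0.281 and 0.203 in Q92, and 0.190 and 0.425 in Q111. Q20 exceeded WT by a ratio of 13.1 (exact counting interval 11.0 to 15.6) and Q92 by 55.5 (38.8 to 82.5). The Q20 libraries did not overlap with any other, and WT, KO and Q50 overlapped with each other.

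Sall4 was 47.1 and 54.6 in Q20, on 3791 and 5094 reads, and 0.105 and 0.135 in WT. It was 0 in both libraries of KO and of Q50, 0.0495 and 0 in Q92, and 0.0406 and 0.0709 in Q111. Its level in Q20 was at least 3662-fold higher than in KO and at least 2331-fold higher than in Q50, against a floor of 3 reads over each group, and 417 times that in WT (exact counting interval 260.2 to 716).

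Lin28a was 70.8 and 69.1 in Q20, on 5698 and 6444 reads, 0.245 and 0.405 in WT, 0.0394 and 0.0441 in KO, 0.0580 and 0.0353 in Q50, 0.0826 and 0.0469 in Q92, and 0.162 and 0.128 in Q111. Q20 exceeded WT by a ratio of 206 (exact counting interval 155 to 281) and KO by 1668 (878 to 3649). As for Pou5f1, WT stood second and Q111 after it, with no overlap between them.

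Tdgf1 was 0.683 and 0.568 in Q20, 0.350 and 0.344 in WT, 0.0493 and 0 in KO, 0 and 0.0353 in Q50, 0.0495 and 0.0469 in Q92, and 0.0948 and 0.128 in Q111. Its Q20 value rests on 108 reads and exceeded that of WT by a ratio of 1.79 (exact counting interval 1.27 to 2.58). It failed the filter on low values and so was not among the tested genes, but with no filter it was called higher in Q20 than in WT, Q50, Q92 and Q111 (limma). Q20 was thus the highest genotype for all 5 genes, but for Tdgf1 at a level far below those of the other 4.

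For Q20 against WT, 4 of 4 tested genes were called higher, where 9.97% of all 13206 tested genes were called higher, 4.57% lower and 14.5% in either direction. These 4 passed the filter only through the Q20 libraries, so their count is no evidence by itself. Pou5f1 rose by 6.03 on the log2(value + 1) scale (SE 0.11, limma adjusted p = 6.8e-08), Lin28a by 5.75 (SE 0.12), Sall4 by 5.53 (SE 0.12) and Nanog by 2.81 (SE 0.23, adjusted p = 9.3e-05). This scale understates the ratios above because most values outside Q20 lie below the pseudocount of 1.

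Compared with Q20, the 4 genes were called lower in Q50 (10.7% of all genes lower, 8.05% higher, 18.8% called), in Q92 (15.9% lower, 9.88% higher, 25.8% called) and in Q111 (16.1% lower, 12.2% higher, 28.3% called). The changes of Pou5f1 were -6.43 in Q50, -6.44 in Q92 and -6.23 in Q111 (SE 0.11 each), and those of Nanog -3.06, -3.53 and -3.46 (SE 0.23 each). These comparisons share the Q20 libraries with each other and with Q20 against WT, so they restate the same 2 high values. The test over all 6 genotypes also called the 4 genes, beside 38.0% of all tested genes.

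The slope on CAG length over the 8 NPC knock-in libraries was called lower for all 4, beside 10.1% of all genes lower, 12.0% higher and 22.0% called. Slopes were -5.44 for Pou5f1 (SE 1.57), -5.18 for Lin28a (SE 1.47), -4.87 for Sall4 (SE 1.38) and -3.17 for Nanog (SE 0.71, limma adjusted p = 0.0176). Among the longer repeats the means of Lin28a were 0.0466 in Q50, 0.0647 in Q92 and 0.145 in Q111, and those of Nanog 0.717, 0.242 and 0.307. Without Q20 replicate 1 or 2, or with 1 mean value per line, 0 of the 4 were called, and without either library of Q92 or of Q111 only Nanog was. Without the Q20 line, an alternative chosen after seeing the data, the slopes of Pou5f1, Lin28a and Sall4 became 0.25, 0.17 and 0.11, that of Nanog became -0.66, and 0 were called (limma).

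For KO against WT in NPC, 0 of 4 tested genes were called, beside 1.42% of all genes (0.545% lower, 0.878% higher), although 2 had an unadjusted p under 0.05 (limma). These were Pou5f1, with a change of -0.38 (SE 0.11, adjusted p = 0.189), and Lin28a, with -0.34 (SE 0.12, adjusted p = 0.231). Both WT libraries lay above both KO libraries for Pou5f1, Lin28a, Sall4 and Tdgf1. In that order the reads were 53 against 13, 47 against 9, 17 against 0 and 48 against 5. For Nanog the groups overlapped, at 1.63 and 0.601 in WT and 0.975 and 0.591 in KO. The share of all genes separated in this way was not counted, so these orders are a description only. Lin28a was called with a pseudocount of 0.1 (limma adjusted p = 0.0454) and with edgeR on the recovered reads (adjusted p = 0.0150), the lowest of its 9 alternatives, the highest being 0.999.

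Few NPC genes separated the Q20 libraries from the rest this widely. Both Q20 libraries lay at least 4-fold above all 10 others, on the log2(value + 1) scale, for 90 of 13206 genes (0.682%), against 1 to 12 genes for each of the other genotypes. In that order Pou5f1 ranked 1, Lin28a 3, Sall4 4 and Nanog 44. Between and after them stood Nxf3 (rank 2), Calcr (rank 5), the de novo DNA methyltransferase Dnmt3b (rank 6) and the epithelial adhesion gene Epcam (rank 7). The ranks of the pluripotency genes rest on the Q20 values known when these genes were listed, so they are a description only. Over the 12 NPC libraries Calcr, Dnmt3b and Nxf3 were also the genes whose values followed Pou5f1, Lin28a and Sall4 most closely among 10561 compared (Pearson's r from 0.981 to 0.999), a description that rests on the 2 Q20 libraries. Nanog was closest to Pim2 (0.973), Frem2 and Calcr (both 0.967).

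Set beside the mESC of the same genotype, on separately scaled tables and with no test, the genes differed widely in how far the NPC level lay below the mESC level. The Q20 mean in NPC was 55.1% of that in mESC for Lin28a, 24.3% for Sall4, 23.4% for Pou5f1, 3.95% for Nanog and 0.0963% for Tdgf1. Per kilobase of exon in NPC Q20, Pou5f1 stood at 39.5, Lin28a at 17.5, Sall4 at 9.19, Nanog at 5.95 and Tdgf1 at 0.239.

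**Figure D4:**
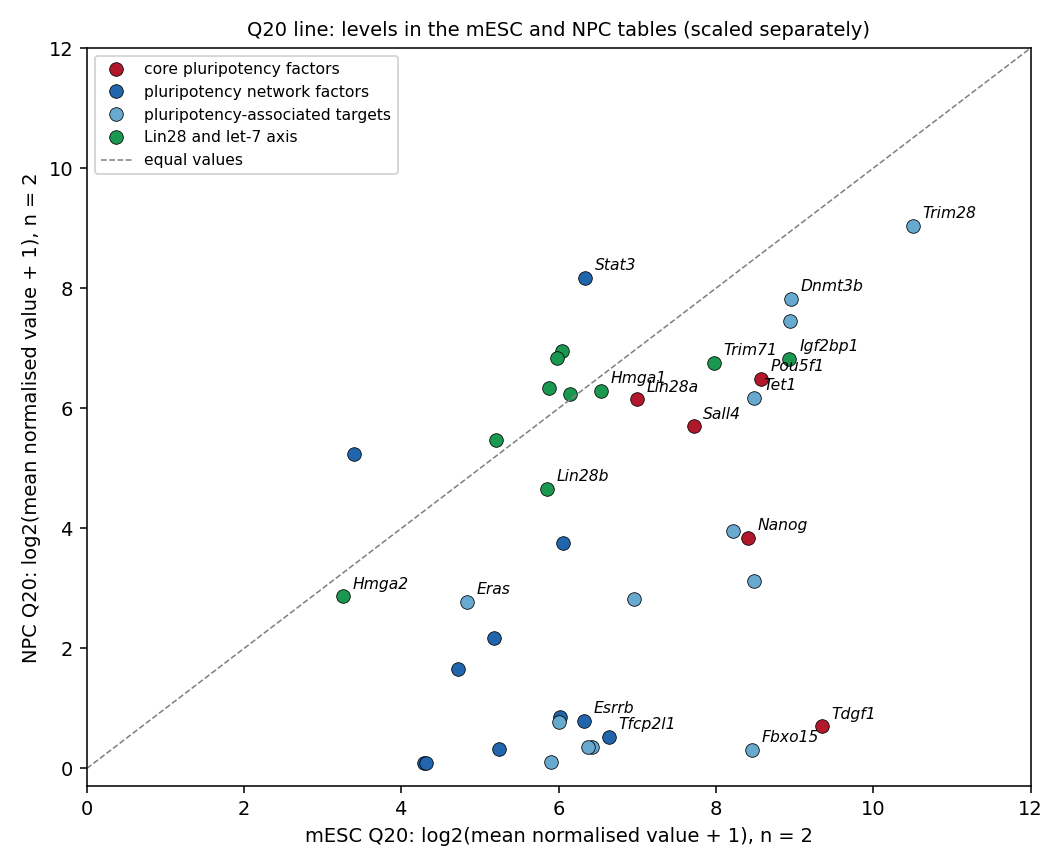
Mean level of each gene in the 2 mESC Q20 libraries (horizontal axis) and the 2 NPC Q20 libraries (vertical axis), both as log2(mean normalised value + 1) from tables scaled separately, coloured by list; the dashed line marks equal values. Pou5f1, Sall4 and Lin28a lie close to Trim71, Igf2bp1 and Tet1, whereas Tdgf1, Esrrb, Tfcp2l1 and Fbxo15 lie near 0 in NPC.

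Of the 9 tested pluripotency network factors reported here, 0 were called in NPC Q20 against WT by limma, with 2 at an unadjusted p under 0.05, and 1, Nr5a2, by edgeR. Several factors of naive pluripotency stayed below 1 in NPC Q20, at 0.721 and 0.751 for Esrrb and 0.646 and 0.225 for Tfcp2l1. Tbx3 was 0.0497 and 0.0858, Nr5a2 0.0745 and 0.418, Nr0b1 0.0373 and 0.0965 and Klf2 0.770 and 0.836. Others of the list were higher in Q20, Klf4 at 3.19 and 3.83, Klf5 at 2.16 and 2.18 and Mycn at 6.88 and 18.2. Myc was 33.6 and 39.4 and Stat3 290 and 287. Esrrb was higher in several other lines, up to 7.74 in a Q92 library. Of 8 tested targets 2 rose, Dnmt3b (5.05, SE 0.24) and the embryonic Ras gene Eras (2.67, SE 0.13), and 0 fell, beside 9.97% of all genes called higher. Eras passed the filter only through the Q20 libraries, so its call is no evidence by itself. Dnmt3b was 210.1 and 241 in Q20 and between 3.61 and 7.64 elsewhere, and Eras 4.98 and 6.64 in Q20 and at most 0.0876 elsewhere. Fbxo15, an OCT4 target with a mean of 351 in mESC Q20, was 0.236 in both NPC Q20 libraries.

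Genes of the Lin28 and let-7 axis were partly high in NPC Q20. Of 10 tested 4 rose in Q20 against WT and 0 fell, beside 9.97% and 4.57% of all genes, with a median of 0.19 beside -0.02 over all genes. They were Lin28b, the paralog of Lin28a (4.32, SE 0.26, limma adjusted p = 1.7e-05), the RNA-binding proteins Igf2bp1 (3.88, SE 0.36) and Trim71 (3.74, SE 0.76, adjusted p = 0.0128), both let-7 targets, and Hmga1 (2.04, SE 0.40). Lin28b was 26.0 and 22.5 in Q20, but also 11.6 and 17.6 in Q111, 1.77 and 3.20 in KO, at most 1.24 in WT and Q92, and 0 in both Q50 libraries. Trim71 was 103 and 111 in Q20 and next highest in Q92, at 40.2 and 39.9. Igf2bp1 was 81.3 and 144 in Q20 and at most 22.1 elsewhere.

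Unlike Lin28a, these genes were thus not near 0 in all 5 other genotypes. Hmga2, a let-7 target with 4 seed matches, did not follow: it was 5.37 and 7.23 in Q20 and 36.6 and 26.9 in Q92, and its change in Q20 against WT was -1.04 (SE 0.57, limma adjusted p = 0.30). The let-7 uridylating enzymes Zcchc11 (74.7 and 84.5 in Q20) and Zcchc6 (114 in each Q20 library) and the exonuclease Dis3l2 (44.1 and 42.1) were not called in this comparison.

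**Figure D5:**
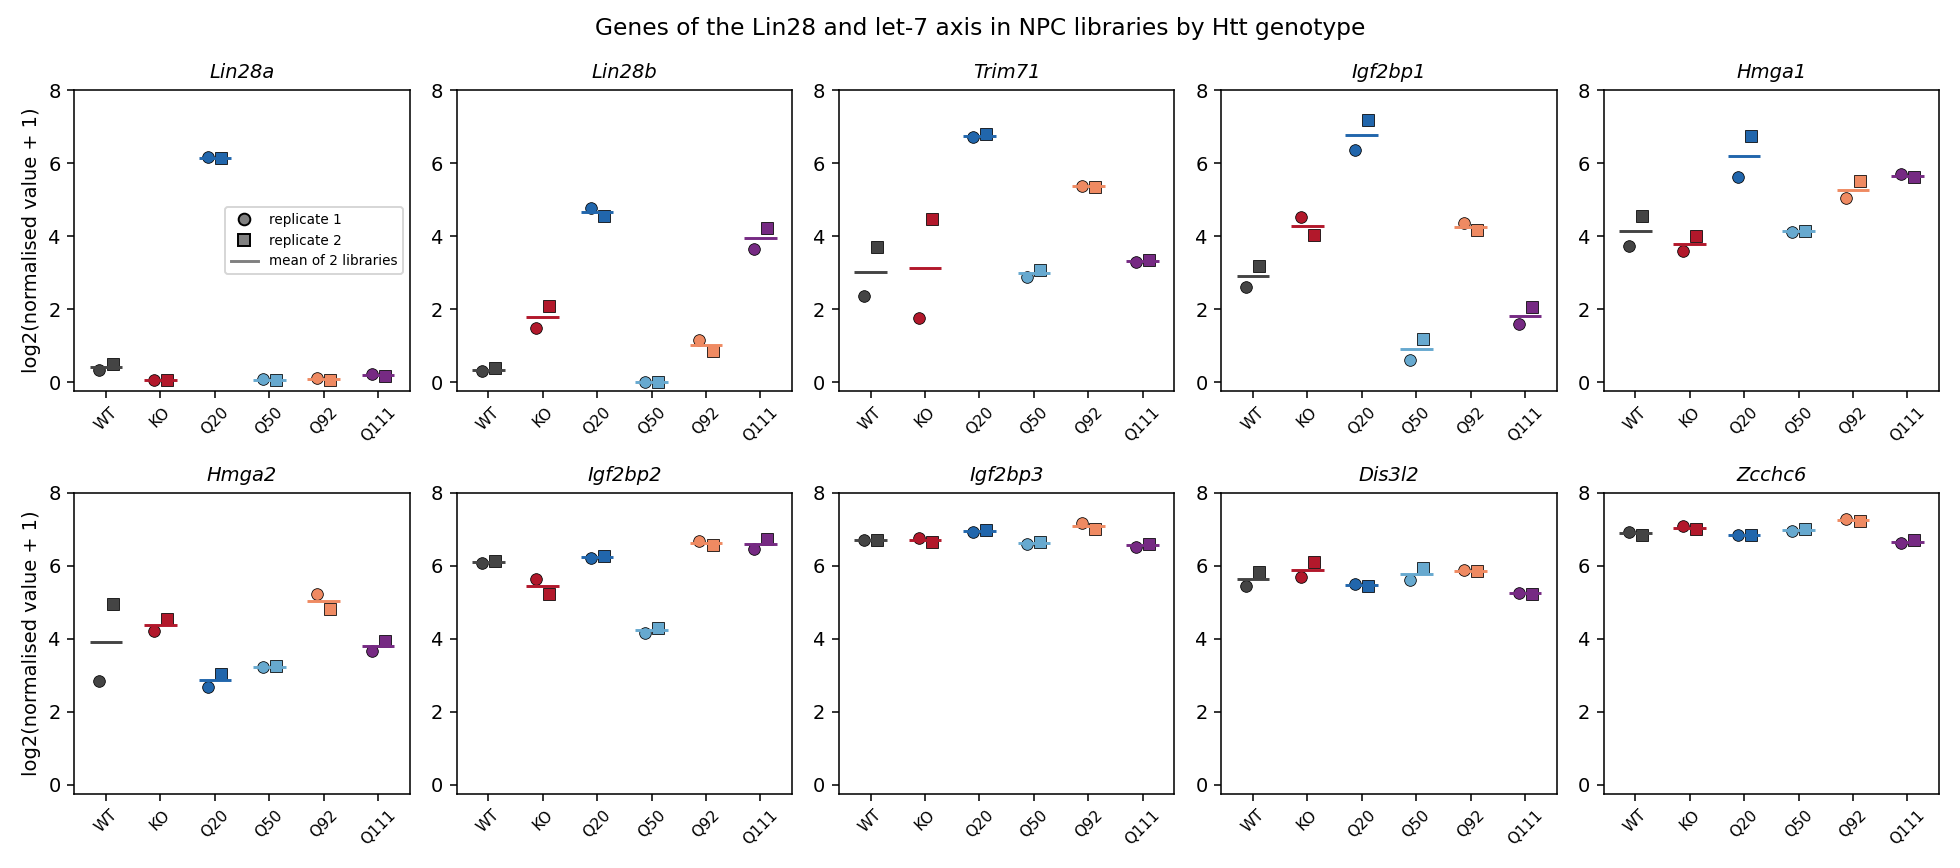
log2(normalised value + 1) of 10 genes of the Lin28 and let-7 axis in the 12 NPC libraries by Htt genotype, with circles and squares for replicates 1 and 2 and lines for the mean of 2. Lin28a is high in Q20 alone, Lin28b in Q20 and Q111, Trim71 in Q20 and next in Q92, and Hmga2 is not high in Q20.

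Lin28b, the paralog of Lin28a, rose in Q20 against WT and is counted above with the Lin28 and let-7 axis. Of the 3 tested paralogs of Sall4 (Sall1, Sall2 and Sall3) 0 rose, beside 9.97% of all genes, and 1 fell, beside 4.57%. This was Sall3 in Q20 against WT (-1.05, SE 0.14, limma adjusted p = 0.0014), while Sall1, at 76.1 and 78.8 in Q20, was not called. Of 7 tested neural SOX and POU genes 0 rose and Pou3f4 fell (-1.61, SE 0.30, adjusted p = 0.0078).

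Some markers of other cell types also differed between Q20 and WT NPC. All 9 neural progenitor markers were measured, and their summed level was 2802 and 2947 in NPC Q20 against 4723 to 7473 in the 10 other libraries. In Q20 against WT 0 of the 9 rose and 2 fell, Olig2 (-2.72, SE 0.66) and Cdh2 (-0.53, SE 0.14), beside 9.97% and 4.57% of all genes. Of 7 primed and mesoderm markers, all measured, 4 were tested and 4 rose: Otx2 (3.63, SE 0.28), Eomes (2.25, SE 0.26), T (2.07, SE 0.17) and Fgf5 (1.14, SE 0.13). Eomes and Fgf5 passed the filter only through the Q20 libraries, so the count is no evidence by itself, and edgeR called 3, not Fgf5. Otx2 was 14.8 and 16.5 in Q20 but also 12.1 and 18.5 in Q50. The sum of that list was 25.4 and 29.1 in Q20 and 0.847 to 19.5 elsewhere, and Mixl1 was 0.0870 and 0.139 and Mesp1 0.0621 and 0.0536 in Q20.

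The counts below are for Q20 against WT, where 9.97% of all genes were called higher and 4.57% lower. Of 6 neuron markers 4 rose and 1 fell, led by Stmn2 (6.52, SE 0.16), at 103 and 128 in Q20 and at most 5.51 elsewhere. Their sum was 776 and 951 in Q20 and 731 to 1624 elsewhere. Of 10 feeder fibroblast markers 5 rose and 1 fell, with a sum of 374 and 305 in Q20 against 122 to 1085 elsewhere, where Q50 was highest. Of 6 astrocyte markers 1 rose, Gfap (4.00, SE 0.52), and 0 fell. Gfap was 43.1 and 27.8 in Q20 but also 72.9 and 35.3 in Q50. The astrocyte sum was 3466 and 3262 in Q20 and 1109 to 4645 elsewhere. Primitive endoderm markers summed to 199.7 and 237 in Q20 and 16.7 to 296 elsewhere. Of 4 tested 1 rose, the laminin chain Lama1 (1.27, SE 0.25), and 2 fell, Dab2 and Gata4. Lama1 was 34.2 and 31.2 in Q20 and at most 21.2 elsewhere. Gata4 stood at 0.112 and 0.107 and Gata6 at 0.162 and 0.139 in Q20. Germ cell markers summed to 0.879 to 1.22 in Q20, with Tex11 at 0 in both libraries. The part of these cell types in the pluripotency values of NPC Q20 was not tested.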

How the data were processed

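RNA of 12 mESC and 12 NPC libraries was sequenced from paired ends. Per the submitters' processing notes, CASAVA 1.8 and STAR were used with the genome build GRCm38.p6; the counter, annotation, strand setting and filters are not given in the sources used here. The deposited signal values, which the authors name CPM, are not plain CPM, since column totals differ (from 900342 to 1080734). All of them are whole multiples of 1 step per library (tolerance 0.02 of a step), so read numbers were recovered, which set the depth and the counting intervals.

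Values were tested with limma 3.58.1 (variance trend, two-sided, R 4.3.3) on log2(value + 1), for genes at 1 or more in at least 2 libraries. Each cell type was fitted alone, with 6 group means or with CAG length as a number over 8 libraries. P-values were adjusted by Benjamini-Hochberg over all tested genes and called under 0.05. Alternatives were edgeR 4.0.16 on the recovered reads, a pseudocount of 0.1, no filter, a replicate block, the libraries of both groups alone, 89 for 92 repeats, 1 mean per line and each library left out. The replicate difference correlated between all 15 pairs of genotypes in mESC (r from 0.25 to 0.55), where the first principal component also separated the numbers, but not in NPC (r from -0.05 to 0.47). The numbers were therefore read as a pairing in mESC alone, from the data and not from the labels. Blocked values are given there beside the results of the pluripotency genes that they change. For other lists they are given only in the comparisons named. The fits were also run on simulated counts with a single fixed dispersion and no replicate split. That run checks the code and cannot show how the tests behave with the replicate split of the mESC data. Python 3.11.15 with pandas 2.3.3, numpy 2.4.6, scipy 1.17.1 and matplotlib 3.10.9 did the rest.

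The 9 genes, the gene lists and the tests were chosen with earlier results of these data known. Of each list, the called genes with the largest changes were named, with genes whose value bears on a listed gene. One further gene of the network factor list is not reported here, so the counts of that list do not cover it. Closest genes are the 3 with the highest Pearson's r. Promoter, microRNA and site sequences were read from RefSeq (GRCm38.p6) and GENCODE M21, which held 99.63% of the identifiers of the mESC table and 99.82% of those of the NPC table.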

Additional observations from a re-analysis of the deposited data

Results flagged for a closer look

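The 5 genes matched in both cell types were screened for contrasts with no overlap and opposite order of the groups in mESC and NPC. Lin28a and Tdgf1 had such contrasts. The share of all genes meeting this rule was not counted, and the difference between the cell types was not tested. The NPC order rests on the Q20 values known when the genes were listed. For Lin28a the ratio of the Q92 mean to the Q20 mean was 1.21 in mESC and 0.000925 in NPC. For Tdgf1 the ratio of Q50 to Q20 was 1.65 in mESC and 0.0282 in NPC, and that of Q92 to Q20 was 1.70 in mESC and 0.0771 in NPC. None of the mESC changes passed the test (limma), and that of Tdgf1 is taken against a Q20 pair of 273 and 1027. The NPC values of Tdgf1 rest on 108 reads in Q20, 3 in Q50 and 6 in Q92.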

How the results depend on the processing

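Of the 152 recomputed counts of called genes, 137 equalled the reported count or lay close to it. A gain of Tdgf1 beside the 4 tested NPC genes was taken as close. In mESC the replicate block called 1 gene, Dppa5a, in Q20 against WT (change -1.11, SE 0.11, limma adjusted p = 0.00452) and 1, Dppa5a, in the test over 6 genotypes, where calls over all genes went from 45 to 1475 and from 28 to 1206. In NPC the replicate difference had a median r of 0.0002 over the pairs of genotypes. The highest r was 0.47, so some NPC genotypes may share a replicate split. With the block 0 of the 4 tested genes were called in NPC KO against WT. In NPC KO against WT 1 of the genes was called with a pseudocount of 0.1 and with edgeR (Lin28a both times), and 1 with no filter (Tdgf1). For the NPC slope, 1 of 4 (Nanog) was called with a pseudocount of 0.1 and with the replicate block, 0 with 1 mean value per line, which leaves 4 points, and 0 without the Q20 line, chosen after seeing the data, where Pou5f1 turned to 0.25, Lin28a to 0.17 and Sall4 to 0.11. Leaving out 1 library gave from 0 to 4 called slopes. The cause of the other changes was not tested, and the block changed no other call of these genes. Without the filter Tdgf1 was called in addition in the NPC comparisons with Q20 and over 6 genotypes. Of 222 recomputed single-gene values 185 kept their call and direction. Values of a few reads limit what NPC outside Q20 can show.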

Other observations

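Some genes were listed at 0 in 1 library of a genotype and at 10 or more in the other, 59 in mESC and 67 in NPC, and none of the pluripotency genes was among them. Single-exon genes made up 67.8% of these in mESC and 79.1% in NPC, against 0.807% and 0.883% of all genes reaching 10 in a library. Neural SOX and POU genes were among them: in NPC Sox21 was 40.9 and 0 in Q92 and 0 and 54.1 in Q111, Sox1 was 19.3 and 0 in Q50, and Sox3 was 10.8 and 0 in Q20, and in mESC Pou3f1 was 0 and 28.0 in Q50.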
